A study of Homo sapiens with 16 samples.

Results

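The kinetochore is the protein assembly that joins a chromosome's centromere to spindle microtubules in mitosis, and the transcripts of its subunits were followed here through p53 depletion, iASPP depletion and nutlin in a colon cancer cell line. The set is a list of 35 gene symbols for kinetochore and centromere proteins, and every symbol was found in the deposited table of 20271 genes. The rule uses gene symbols alone and no measured value. Of the 35 genes, 34 had a mean of at least 1 FPKM (fragments per kilobase, scaled to library size) over all libraries and were tested. CENPP, at 0.759 FPKM, was under that limit and is given by its values alone.

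A centromere is marked by nucleosomes that hold the histone variant CENP-A, which is placed there by the chaperone HJURP after the MIS18 complex has prepared the site. The constitutive centromere associated network sits on those nucleosomes through the cell cycle, and in mitosis it carries the MIS12 complex, the NDC80 complex that grips microtubules, the SKA complex that holds the grip on moving ends, and the RZZ complex of the outer corona. Many of these transcripts are known to be made mainly in late S phase, G2 and mitosis, and p53, through its target CDKN1A (p21), is known to lower many genes of that phase. Nutlin blocks the binding of MDM2 to p53. iASPP, encoded by PPP1R13L, is a p53 binding protein known as an inhibitor of p53.

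The cells were HCT116, labelled as wild type for p53, and every group carried an siRNA for 3 days. With nutlin for a further 0.5 day the groups were p53+iASPP siRNA+nutlin, iASPP siRNA+nutlin, p53 siRNA+nutlin and CTR siRNA+nutlin. Without it they were p53+iASPP siRNA, iASPP siRNA, p53 siRNA and CTR siRNA, the control siRNA, and no vehicle is named for them. Each of the 8 groups has 2 libraries, 16 in all, and nothing in the labels says that 2 libraries of a group came from separate cultures, so the p-values rest on a spread within groups that may be technical.

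Epithelial keratins and EPCAM were high in all libraries (EPCAM 138 to 261 FPKM), CDH1 stood at 4.13 to 9.78 FPKM and CDX2 at 1.43 to 2.45 FPKM, while VIL1, LGALS4 and CDX1 of differentiated gut epithelium were at or near 0. Of the leukocyte, fibroblast and endothelial markers LYZ reached 3.70 FPKM and COL1A1 was at 0.0922 to 1.02 FPKM, and the others were at most at 0.309 FPKM. Absolute depth is unknown; read from the steps of the low values, replicate 1 libraries had a relative depth of 0.822 to 1.33, and replicate 2 libraries, read more deeply, one of 3.67 to 7.68. The replicates of 5 groups lay close together (median absolute log2 difference 0.0514 to 0.0668 at 100 FPKM and above). They lay further apart in p53+iASPP siRNA+nutlin (0.178), iASPP siRNA+nutlin (0.259) and p53 siRNA+nutlin (0.197), called the 3 wide pairs, and a distance within a pair does not show which of its libraries stands apart. In iASPP siRNA+nutlin, 34 of the 35 genes were higher in replicate 2 than in replicate 1 (median log2 difference 0.79), and in p53 siRNA+nutlin 1 of 35 was (median -0.45).

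PPP1R13L, the target of the iASPP siRNA, was at 0.378 and 2.45 FPKM in p53+iASPP siRNA+nutlin, 0.807 and 1.30 in iASPP siRNA+nutlin, 16.8 and 14.9 in p53 siRNA+nutlin and 17.1 and 18.9 in CTR siRNA+nutlin. Without nutlin it was at 1.73 and 1.03 FPKM in p53+iASPP siRNA, 0.541 and 0.279 in iASPP siRNA, 6.88 and 11.4 in p53 siRNA and 9.95 and 8.69 in CTR siRNA, so every library with the iASPP siRNA lay below every library without it. CDKN1A, the p53 target that encodes the cell cycle inhibitor p21, was at 83.1 and 141 FPKM in p53+iASPP siRNA+nutlin, 1656 and 776 in iASPP siRNA+nutlin, 47.4 and 107 in p53 siRNA+nutlin and 1510 and 1577 in CTR siRNA+nutlin. Without nutlin CDKN1A was at 40.3 and 37.9 FPKM in p53+iASPP siRNA, 411 and 406 in iASPP siRNA, 14.5 and 15.6 in p53 siRNA and 70.7 and 72.7 in CTR siRNA. CDKN1A was highest in iASPP siRNA+nutlin, CTR siRNA+nutlin and iASPP siRNA, the 3 groups with the lowest summed FPKM of the 35 genes (121 to 235, 115 to 129 and 398 to 446).

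The promoters of 6 of the genes are shown, chosen by the size of the nutlin change on the log2(FPKM + 1) scale described below. SPC25, ZWINT and NDC80 had the largest changes and CENPT, ZW10 and CENPC the smallest. The choice was among genes with a promoter in the RefSeq table (GRCh38.p14), which held 28 of the 35. This order depends on the added 1, which shrinks changes of genes with low FPKM. With 0.1 in its place CENPC changed by more (-1.81) than MIS12 (-1.32) and NSL1 (-1.22). Each runs 5′ to 3′ on the gene's strand from 250 bases before the RefSeq transcript start to 50 after it. Capitals mark TTTGAA and the variant TTCGAA, which are forms of the cell cycle homology region, the box CCAAT that NF-Y binds, and the reverse complement of each. The E2F-type motif TTTGGCGC and its variant TTTCGCGC were searched too and are in none of the 6. The windows are chr2:168890381-168890680 for SPC25, chr10:56361210-56361509 for ZWINT, chr18:2571307-2571606 for NDC80, chr16:67847644-67847943 for CENPT, chr11:113773643-113773942 for ZW10 and chr4:67545454-67545753 for CENPC, with NDC80 on the plus strand and the others on the minus strand.
SPC25: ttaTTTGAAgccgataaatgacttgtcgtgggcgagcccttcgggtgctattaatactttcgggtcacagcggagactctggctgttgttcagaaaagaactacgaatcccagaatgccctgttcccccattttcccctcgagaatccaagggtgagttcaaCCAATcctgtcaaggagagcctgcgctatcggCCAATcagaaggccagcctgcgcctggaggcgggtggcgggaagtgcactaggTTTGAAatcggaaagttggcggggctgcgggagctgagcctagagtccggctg
ZWINT: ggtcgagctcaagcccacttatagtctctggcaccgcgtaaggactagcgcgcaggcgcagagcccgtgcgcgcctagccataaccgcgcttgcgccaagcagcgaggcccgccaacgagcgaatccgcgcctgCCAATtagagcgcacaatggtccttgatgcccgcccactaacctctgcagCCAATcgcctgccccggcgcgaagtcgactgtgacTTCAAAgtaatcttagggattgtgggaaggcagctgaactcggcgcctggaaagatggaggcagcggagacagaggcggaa
NDC80: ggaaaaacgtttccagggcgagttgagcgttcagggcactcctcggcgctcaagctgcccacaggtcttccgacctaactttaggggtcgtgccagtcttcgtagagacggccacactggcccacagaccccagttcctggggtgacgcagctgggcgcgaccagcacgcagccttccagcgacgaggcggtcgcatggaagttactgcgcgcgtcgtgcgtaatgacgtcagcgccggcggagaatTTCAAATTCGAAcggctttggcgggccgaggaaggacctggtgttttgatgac
CENPT: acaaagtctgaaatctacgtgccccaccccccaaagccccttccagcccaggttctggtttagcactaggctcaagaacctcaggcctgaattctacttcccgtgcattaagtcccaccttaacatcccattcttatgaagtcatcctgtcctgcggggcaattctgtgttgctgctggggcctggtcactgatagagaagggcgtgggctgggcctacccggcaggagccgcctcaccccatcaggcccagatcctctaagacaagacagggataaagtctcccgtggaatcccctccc
ZW10: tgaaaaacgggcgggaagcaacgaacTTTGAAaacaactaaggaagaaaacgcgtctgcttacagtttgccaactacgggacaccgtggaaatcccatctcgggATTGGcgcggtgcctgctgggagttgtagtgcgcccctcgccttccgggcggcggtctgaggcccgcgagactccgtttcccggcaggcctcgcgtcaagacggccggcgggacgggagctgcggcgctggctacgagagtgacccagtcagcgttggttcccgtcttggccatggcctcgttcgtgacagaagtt
CENPC: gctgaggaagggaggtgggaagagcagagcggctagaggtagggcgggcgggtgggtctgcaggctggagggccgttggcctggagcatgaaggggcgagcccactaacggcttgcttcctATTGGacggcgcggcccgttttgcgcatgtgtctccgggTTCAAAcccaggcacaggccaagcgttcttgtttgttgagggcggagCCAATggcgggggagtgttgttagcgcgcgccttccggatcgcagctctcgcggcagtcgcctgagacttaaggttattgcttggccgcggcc

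SPC25, ZWINT and NDC80 all carried TTTGAA on 1 strand or the other, which in SPC25 and NDC80 began 3 bases before the transcript start. SPC25 and ZWINT each had a pair of CCAAT boxes in the same orientation, 88 and 56 bases before the start in SPC25 and 116 and 66 in ZWINT. In NDC80 the letters TTCGAA follow it directly, and no CCAAT was found. CENPT carried none of the letters and ZW10 and CENPC carried both TTTGAA and CCAAT. Over the 28 promoters, searched on both strands, TTTGAA or TTCGAA was in 15 (53.6%), against 16.6% of 27305 RefSeq promoters of the same length. CCAAT was in 17 (60.7%), against 35.7%, TTTGGCGC or TTTCGCGC in 2 (7.14%), against 1.18%, and no 2 matches overlapped. These are matches of letters, with no binding measured, and 6 of the 28 promoters had none.

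**Figure D1:**
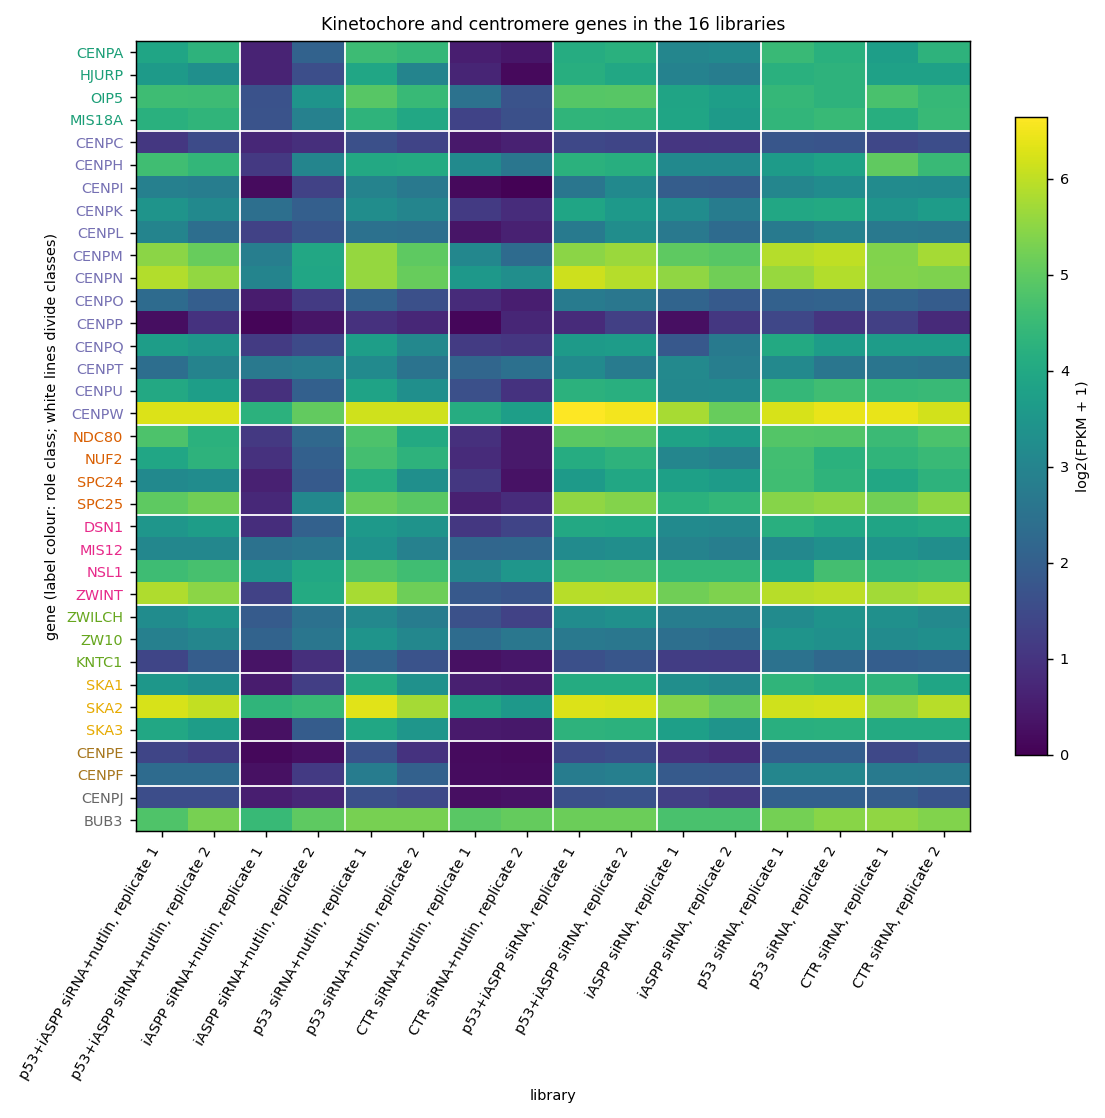
Level of the 35 genes in every library, as log2(FPKM + 1) on the colour scale, with genes down the page by role and libraries across, nutlin groups on the left. The darkest columns are those of iASPP siRNA+nutlin and CTR siRNA+nutlin; CENPT and BUB3 change colour little.

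In CTR siRNA cells the levels spanned 78.3 ± 9.57 FPKM for CENPW (mean ± SD, n = 2), a histone-fold subunit, to 1.06 ± 0.453 for CENPP. CENPW, SKA2 (53.7 ± 9.14 FPKM), ZWINT (53.4 ± 2.60), CENPM (46.4 ± 8.38) and BUB3 (43.3 ± 3.42) were the 5 highest per length. SKA2 and ZWINT did not differ beyond their spread, nor did CENPM and BUB3. The lowest were CENPJ (2.60 ± 0.445 FPKM), CENPE (1.91 ± 0.265), CENPC (1.81 ± 0.231) and CENPP.

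Nutlin lowered nearly the whole kinetochore in CTR siRNA cells. With an adjusted p under 0.05 (limma on log2(FPKM + 1), Benjamini-Hochberg over 10662 genes), 32 of the 34 tested genes fell and 0 rose, where 21% of all tested genes fell, 5.87% rose and 26.8% were called in either direction. The median change was -2.48 on the log2(FPKM + 1) scale, against -0.20 over all tested genes. In all 34 the 2 nutlin libraries lay below the 2 controls, as they did in 51.6% of all tested genes. The mean FPKM was under 5% of the control level in 11 of the 35 genes, under 10% in 20 and under 50% in 32. In RNA of whole cultures, fewer cells that express these genes and less of their RNA per cell cannot be told apart. Scaling the libraries by median of ratios moved the all-gene median by 0.20 to 0.00 and the share of higher genes among all calls to 47.6%, against 21.9% unscaled, while the median of the 34 genes was -2.34 and 32 were still called. Counting each of the 5 close replicate pairs as 1 sample, which leaves few samples to estimate the spread, ended every call in all comparisons, with 30 of the 34 genes here at an unadjusted p under 0.05 in limma.

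Of the CENP-A loading genes all 4 fell. CENPA (ENSG00000115163, GRCh38 chromosome 2 from 26764289 to 26801067, plus strand), the centromeric histone, was at 0.473 and 0.320 FPKM in CTR siRNA+nutlin and 12.3 and 18.7 in CTR siRNA (log2 change -3.54 ± 0.36 (SE), adjusted p = 5.28e-05). Its chaperone HJURP (ENSG00000123485, GRCh38 chromosome 2 from 233833416 to 233854566, minus strand) was at 0.600 and 0.114 FPKM in CTR siRNA+nutlin and 12.9 and 12.9 in CTR siRNA (log2 change -3.38 ± 0.32, adjusted p = 4e-05). Both genes were left at under 3% of the control mean (2.56% and 2.77%), with no overlap between the groups. The MIS18 subunits OIP5 and MIS18A fell less in FPKM, to 14.9% and 9.33% of the control mean.

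Of the 12 tested genes of the constitutive centromere associated network 11 fell, and CENPT did not pass. CENPU (ENSG00000151725, GRCh38 chromosome 4 from 184694618 to 184734133, minus strand), of the CENP-O group, was at 2.06 and 0.952 FPKM in CTR siRNA+nutlin and 20.8 and 21.5 in CTR siRNA (log2 change -3.18 ± 0.32, adjusted p = 5.54e-05). CENPI (ENSG00000102384, GRCh38 chromosome X from 101098218 to 101163681, plus strand), of the CENP-H/I/K/M group, was at 0.120 and 0.0271 FPKM in CTR siRNA+nutlin and 8.24 and 7.99 in CTR siRNA (log2 change -3.09 ± 0.29, adjusted p = 3.9e-05). CENPI had the lowest remaining level of all 35 genes, 0.907% of the control mean. CENPT (ENSG00000102901, GRCh38 chromosome 16 from 67828157 to 67847811, minus strand), the histone-fold subunit that recruits NDC80, was at 3.57 and 4.48 FPKM in CTR siRNA+nutlin and 4.98 and 4.70 in CTR siRNA (log2 change -0.22 ± 0.27, adjusted p = 0.575). Its nutlin libraries lay just below the controls, at 83.2% of their mean. CENPP was at 0.0921 and 0.627 FPKM in CTR siRNA+nutlin and 1.38 and 0.736 in CTR siRNA, too low and too uneven between replicates to read. The other 9 genes of this network that fell had log2 changes between -2.85 (CENPM) and -0.95 (CENPC). Exons of CENPT overlap those of TSNAXIP1, THAP11 and NUTF2 on the other strand, and whether reads were counted by strand is not given in the sources used here, so their reads cannot be told apart; the same holds for 12 more of the 35 genes, CENPA with SLC35F6 on its own strand among them.

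The NDC80 complex, the microtubule-binding rod of the outer kinetochore, had the lowest median log2(FPKM + 1) change of the 8 role classes at -3.87. All 4 subunits fell. That scale understates changes of genes with low FPKM, such as the corona genes, so the order of classes depends on it. SPC25 (ENSG00000152253, GRCh38 chromosome 2 from 168834132 to 168913371, minus strand), which anchors the rod to the inner kinetochore, was at 0.507 and 0.780 FPKM in CTR siRNA+nutlin and 36.2 and 44.9 in CTR siRNA (log2 change -4.66 ± 0.52, adjusted p = 9.26e-05). NDC80 (ENSG00000080986, GRCh38 chromosome 18 from 2571511 to 2616635, plus strand), whose head binds the microtubule, was at 0.879 and 0.359 FPKM in CTR siRNA+nutlin and 22 and 26 in CTR siRNA (log2 change -3.96 ± 0.35, adjusted p = 2.53e-05). SPC25 retained 1.59% and NDC80 2.58% of the control mean. Their dimer partners SPC24 and NUF2 were close behind, with log2 changes of -3.45 and -3.78.

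The MIS12 complex, the linker between centromere and NDC80, changed unevenly, although all 3 listed subunits and ZWINT fell. ZWINT (ENSG00000122952, GRCh38 chromosome 10 from 56357228 to 56361275, minus strand), which ties the outer kinetochore to the RZZ complex, was at 2.64 and 2.31 FPKM in CTR siRNA+nutlin and 51.5 and 55.2 in CTR siRNA (log2 change -3.97 ± 0.61, adjusted p = 0.000751). DSN1 (ENSG00000149636, GRCh38 chromosome 20 from 36751791 to 36773818, minus strand), the subunit that Aurora B phosphorylates to open the complex to its receptors, was at 1.12 and 1.59 FPKM in CTR siRNA+nutlin and 13.8 and 15 in CTR siRNA (log2 change -2.71 ± 0.29, adjusted p = 6.84e-05). DSN1 retained 9.41% of its control mean, while MIS12 and NSL1 of the same complex retained 39.2% and 43.4%.

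In the RZZ complex, which recruits dynein and checkpoint proteins, all 3 fell. ZWILCH (ENSG00000174442, GRCh38 chromosome 15 from 66504959 to 66550128, plus strand) was at 2.13 and 1.48 FPKM in CTR siRNA+nutlin and 9.01 and 7.68 in CTR siRNA (log2 change -1.74 ± 0.20, adjusted p = 0.000111). KNTC1 (ENSG00000184445, GRCh38 chromosome 12 from 122527246 to 122626396, plus strand), the human ROD protein, was at 0.227 and 0.318 FPKM in CTR siRNA+nutlin and 2.95 and 3.18 in CTR siRNA (log2 change -1.68 ± 0.24, adjusted p = 0.000459). KNTC1 retained 8.89% of its control mean and ZW10, which also acts in membrane traffic outside mitosis, 54.8%. For a gene as low as KNTC1 the log2(FPKM + 1) scale understates the change. The call of ZW10 (adjusted p = 0.0105) was lost without CTR siRNA+nutlin replicate 1 (adjusted p = 0.0948) and without CTR siRNA replicate 2 (0.0646).

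All 3 subunits of the SKA complex fell. SKA3 (ENSG00000165480, GRCh38 chromosome 13 from 21153595 to 21176602, minus strand) was at 0.400 and 0.337 FPKM in CTR siRNA+nutlin and 15.7 and 15.8 in CTR siRNA (log2 change -3.61 ± 0.38, adjusted p = 7.27e-05). SKA1 (ENSG00000154839, GRCh38 chromosome 18 from 50374995 to 50394173, plus strand), the microtubule-binding subunit, was at 0.497 and 0.412 FPKM in CTR siRNA+nutlin and 18.9 and 13.9 in CTR siRNA (log2 change -3.56 ± 0.26, adjusted p = 1.14e-05). SKA2, the most abundant of the 3, stood at 14 and 10.6 FPKM in CTR siRNA+nutlin and 47.2 and 60.2 in CTR siRNA, 22.9% of the control mean, where SKA1 and SKA3 retained 2.77% and 2.35%.

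Both corona genes fell. CENPF (ENSG00000117724, GRCh38 chromosome 1 from 214603195 to 214664588, plus strand), a large coiled-coil protein of the nuclear matrix and the fibrous corona, was at 0.172 and 0.138 FPKM in CTR siRNA+nutlin and 5.49 and 5.41 in CTR siRNA (log2 change -2.48 ± 0.26, adjusted p = 6.58e-05). CENPE (ENSG00000138778, GRCh38 chromosome 4 from 103105806 to 103198409, minus strand), the kinesin that moves chromosomes to the spindle equator, was at 0.135 and 0.131 FPKM in CTR siRNA+nutlin and 1.72 and 2.10 in CTR siRNA (log2 change -1.36 ± 0.21, adjusted p = 0.000780). Of the 2 remaining genes, CENPJ (ENSG00000151849, GRCh38 chromosome 13 from 24882284 to 24922889, minus strand), a centriole assembly factor in spite of its name, was at 0.213 and 0.258 FPKM in CTR siRNA+nutlin and 2.91 and 2.28 in CTR siRNA (log2 change -1.54 ± 0.15, adjusted p = 4.23e-05). BUB3 (ENSG00000154473, GRCh38 chromosome 10 from 123154277 to 123170467, plus strand), the checkpoint adaptor that also works outside mitosis, was at 29.5 and 32.4 FPKM in CTR siRNA+nutlin and 45.8 and 40.9 in CTR siRNA (log2 change -0.47 ± 0.18, adjusted p = 0.0778). BUB3 did not pass the threshold, although its nutlin libraries lay below the controls, and it passed in limma with replicate 1 of iASPP siRNA+nutlin left out (adjusted p = 0.0293), with its replicate 2 left out (0.0292) and with either library of p53+iASPP siRNA+nutlin left out (0.0490 in both fits).

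**Figure D2:**
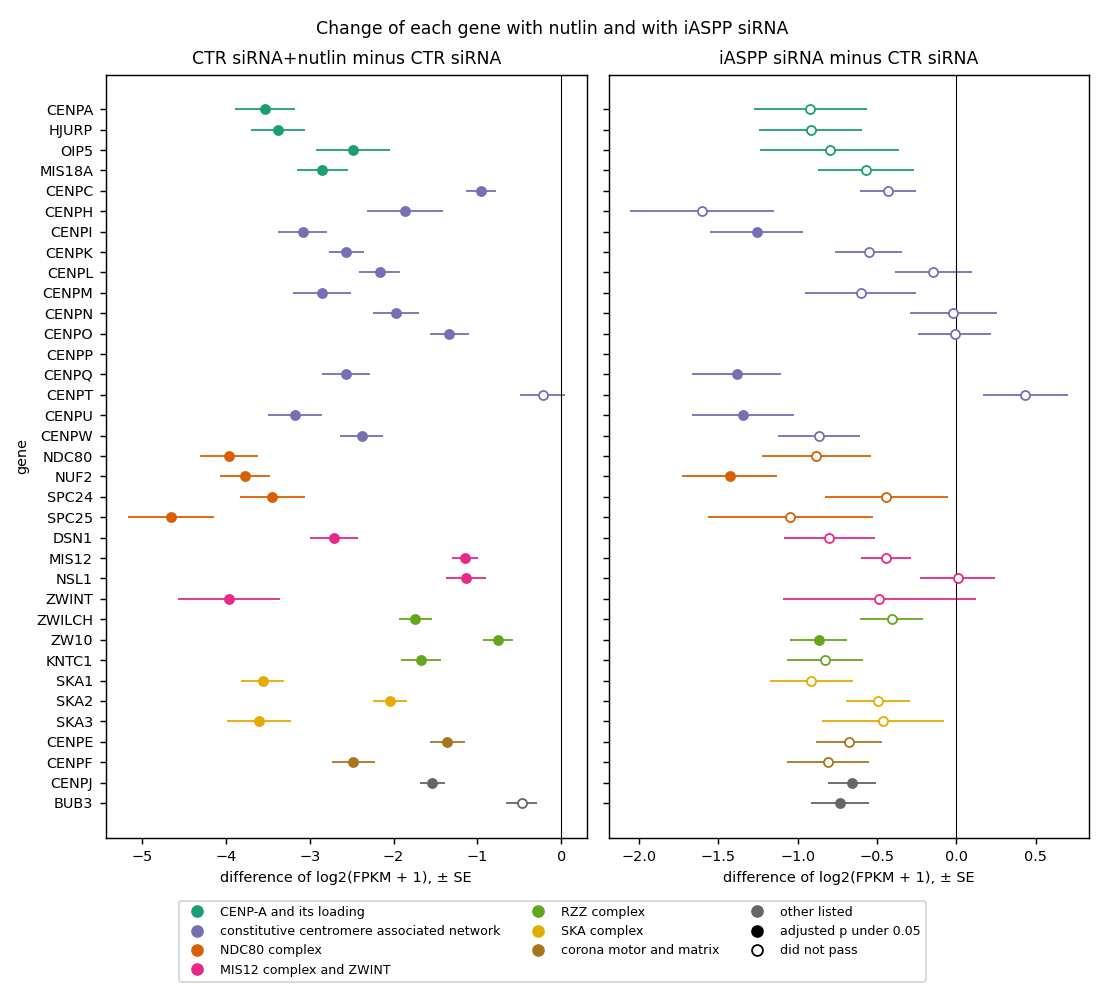
Change of each gene on the log2(FPKM + 1) scale with nutlin in CTR siRNA cells (left) and with iASPP siRNA (right), ± SE of the limma fit, coloured by role; filled points passed an adjusted p under 0.05. The nutlin changes run from -4.66 for SPC25 to -0.22 for CENPT, and those with iASPP siRNA from -1.60 for CENPH to 0.43 for CENPT; CENPP was not tested.

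Partners of 1 complex did not fall by the same amount with nutlin. The difference between their changes was read in each library with a 95% interval from the 8 group means. CENPW fell by more than its histone-fold partner CENPT by 2.16 on the log2(FPKM + 1) scale (CENPW minus CENPT -2.16, interval -3.05 to -1.27). CENPA fell by more than its reader CENPC (-2.58, interval -3.39 to -1.77). DSN1 fell by more than MIS12 (-1.57, interval -2.31 to -0.83) and NSL1 (-1.58, interval -2.23 to -0.93). In the RZZ complex KNTC1 (-0.92, interval -1.23 to -0.62) and ZWILCH (-0.99, interval -1.43 to -0.54) fell by more than ZW10. SKA1 (-1.52, interval -2.12 to -0.93) and SKA3 (-1.57, interval -2.47 to -0.66) fell by more than SKA2. The size of these differences depends on the pseudocount: at 0.1 KNTC1 minus ZW10 was -2.24, interval -2.84 to -1.63, SKA1 minus SKA2 -2.76, interval -3.65 to -1.86 and SKA3 minus SKA2 -2.96, interval -4.70 to -1.21. The intervals of OIP5 minus MIS18A (0.37, interval -0.44 to 1.18) and CENPN minus CENPL (0.19, interval -0.49 to 0.88) included 0; with a pseudocount of 0.1 CENPN minus CENPL was 1.37, interval 0.53 to 2.22. CENPU minus CENPP is not read, since CENPP was too low.

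**Figure D3:**
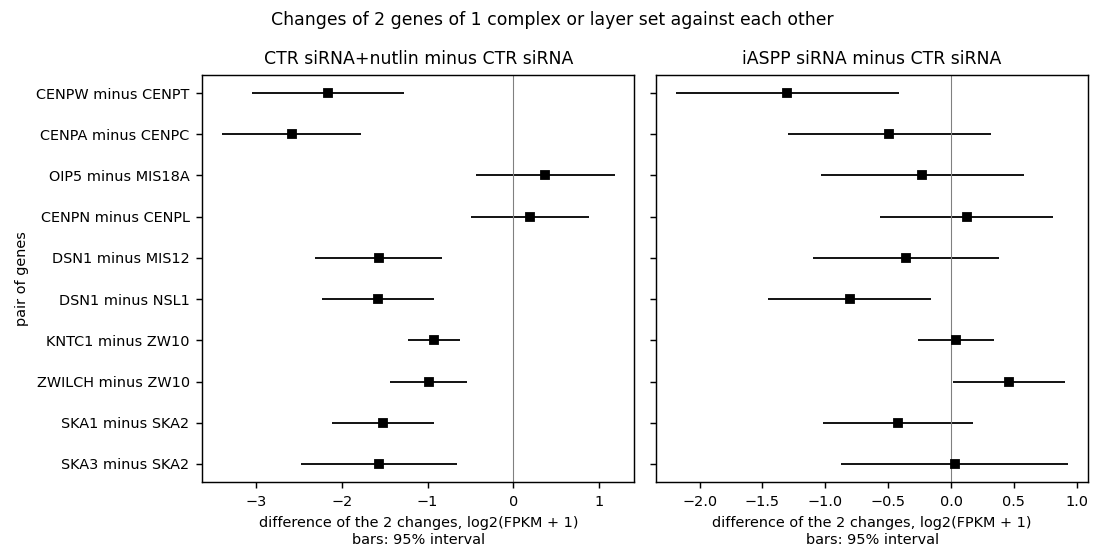
Difference between the changes of 2 genes of 1 complex or layer on the log2(FPKM + 1) scale with nutlin in CTR siRNA cells (left) and with iASPP siRNA (right); squares are estimates and bars 95% intervals. With nutlin 8 of the 10 intervals lie below 0, and with iASPP siRNA those of CENPW minus CENPT and DSN1 minus NSL1 do and that of ZWILCH minus ZW10 lies above it.

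After p53 siRNA the same treatment with nutlin changed no kinetochore gene by test. Of the 34 genes 0 were called by limma, where 0.225% of all tested genes were (0.141% higher and 0.0844% lower). An unadjusted p under 0.05 was found for 6, all lower, and for 15.1% of all tested genes in either direction. The median change was -0.39 against -0.02 over all tested genes, and the mean level with nutlin was 50.8% to 132% of the level without it, so no gene lay under 50%. Both nutlin libraries lay below both others in 22 of 34 genes and above them in 2, against 26% and 21.2% of all tested genes. The smallest p were those of CENPK, which was at 8.58 and 7.07 FPKM in p53 siRNA+nutlin and 14.9 and 15.5 in p53 siRNA (log2 change -0.88 ± 0.21, adjusted p = 0.122), and CENPJ, at 2.09 and 1.76 FPKM in p53 siRNA+nutlin and 3.10 and 3.12 in p53 siRNA (log2 change -0.49 ± 0.15, adjusted p = 0.168). In both genes the nutlin libraries lay below the others. Replicate 2 of p53 siRNA+nutlin was lower than replicate 1 in 34 of the 35 genes and higher in CDKN1A; its part in these values was not tested. Leaving out replicate 1 of p53 siRNA+nutlin, or of all 3 wide pairs, leaves single libraries in those groups. More genes of the set were then called, all lower with nutlin, and more of all tested genes were called too. Leaving out replicate 2 of all 3 wide pairs raised the calls over all tested genes and not in the set.

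By role, CENPA was at 22.7 and 20.3 FPKM in p53 siRNA+nutlin and 21.5 and 17.7 in p53 siRNA, with overlapping groups. HJURP was at 14.2 and 6.99 FPKM in p53 siRNA+nutlin and 17.6 and 18.7 in p53 siRNA. CENPU was at 13.4 and 8.81 FPKM in p53 siRNA+nutlin and 20.6 and 23.2 in p53 siRNA. HJURP and CENPU were lower with nutlin in both libraries and above their levels in CTR siRNA+nutlin. CENPI was at 6.83 and 5.41 FPKM in p53 siRNA+nutlin and 7.28 and 8.33 in p53 siRNA. CENPT was at 7.97 and 4.77 FPKM in p53 siRNA+nutlin and 7.81 and 5.11 in p53 siRNA. CENPP was at 0.936 and 0.656 FPKM in p53 siRNA+nutlin and 1.68 and 1.05 in p53 siRNA. The CENPT groups overlapped.

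In the outer kinetochore SPC25 was at 33.6 and 30.0 FPKM in p53 siRNA+nutlin and 42.3 and 45.7 in p53 siRNA. NDC80 was at 26.7 and 15.5 FPKM in p53 siRNA+nutlin and 28.4 and 27.8 in p53 siRNA. ZWINT was at 53.5 and 34.8 FPKM in p53 siRNA+nutlin and 60.1 and 61.9 in p53 siRNA. These 3 genes had the largest changes with nutlin in CTR siRNA cells on the log2(FPKM + 1) scale. After p53 siRNA their nutlin means were 72.4%, 75.1% and 72.4% of those without nutlin. DSN1 was at 11.1 and 9.58 FPKM in p53 siRNA+nutlin and 17.1 and 14.9 in p53 siRNA. ZWILCH was at 7.61 and 5.87 FPKM in p53 siRNA+nutlin and 8.21 and 9.59 in p53 siRNA. KNTC1 was at 3.45 and 2.23 FPKM in p53 siRNA+nutlin and 4.63 and 3.70 in p53 siRNA. All 3 were somewhat lower with nutlin without passing the test.

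SKA3 was at 14.4 and 10.2 FPKM in p53 siRNA+nutlin and 17.4 and 17.6 in p53 siRNA. SKA1 was at 16 and 9.30 FPKM in p53 siRNA+nutlin and 19.3 and 17.5 in p53 siRNA. In both the lower nutlin value is that of replicate 2. CENPF was at 5.92 and 3.17 FPKM in p53 siRNA+nutlin and 7.25 and 7.34 in p53 siRNA. CENPE was at 2.21 and 0.975 FPKM in p53 siRNA+nutlin and 2.95 and 2.99 in p53 siRNA. BUB3 was at 37.8 and 37.6 FPKM in p53 siRNA+nutlin and 37.3 and 43 in p53 siRNA. BUB3 did not separate the groups, and CENPE and CENPF did, with nutlin lower.

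**Figure D4:**
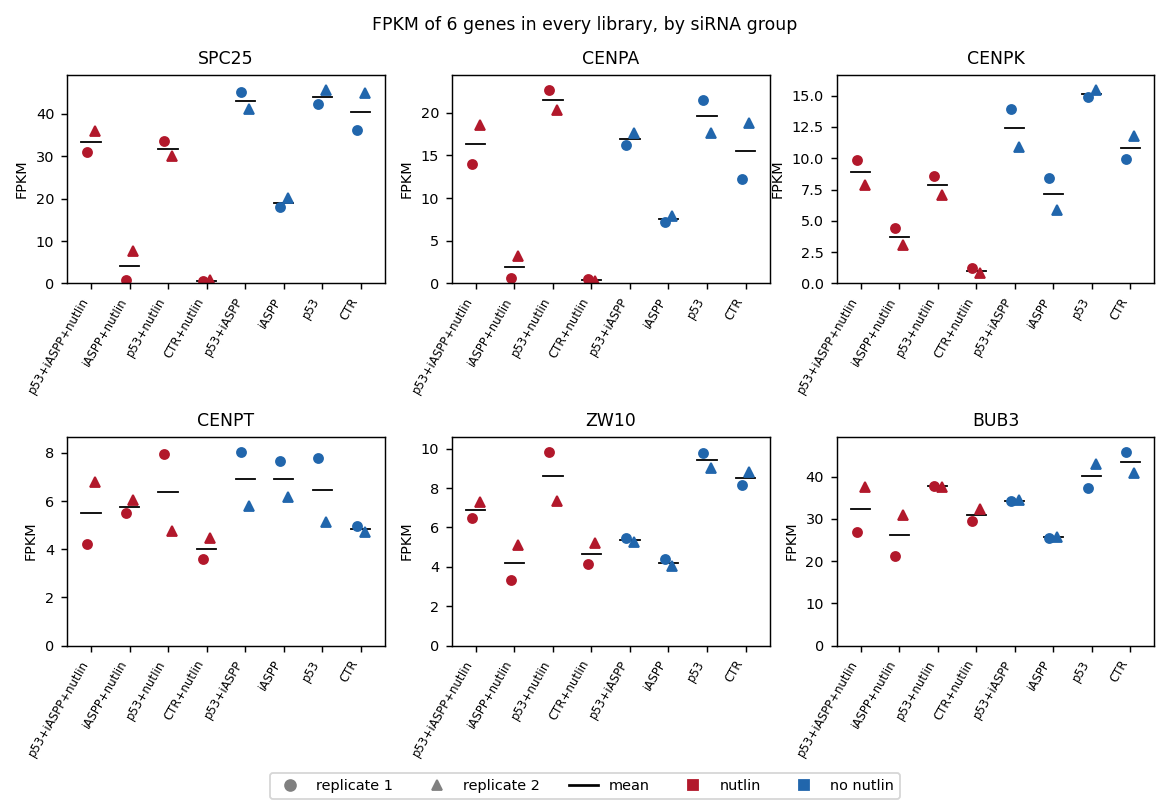
FPKM of SPC25, CENPA, CENPK, CENPT, ZW10 and BUB3 in every library (circles replicate 1, triangles replicate 2, bars the mean), nutlin groups in red on the left and groups without nutlin in blue. SPC25 and CENPA lie near 0 in CTR siRNA+nutlin and near the untreated level where p53 siRNA was given, CENPK is at 4.39 and 3.04 FPKM in iASPP siRNA+nutlin and 1.20 and 0.807 in CTR siRNA+nutlin, while CENPT and BUB3 did not pass the test for nutlin in CTR siRNA cells and BUB3 fell with iASPP siRNA.

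The nutlin effect itself differed between p53 siRNA and CTR siRNA cells in 27 of the 34 genes (nutlin by p53 interaction, limma adjusted p under 0.05), all less negative after p53 siRNA, where 7.65% of all tested genes had a higher, 2.1% a lower and 9.75% any difference. The median difference of differences was 2.13 on the log2(FPKM + 1) scale against 0.20 over all tested genes, and 1.97 against 0.01 after scaling, which moved the share of higher differences among all calls to 59.4%, against 78.5%. The 2 largest were SPC25 (4.20 ± 0.73, adjusted p = 0.00661) and NUF2, the dimer partner of NDC80 (3.81 ± 0.42, adjusted p = 0.00134). The 7 that did not pass were CENPC, CENPH, CENPO, CENPT, ZW10, CENPE and BUB3.

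Read across siRNAs under nutlin, p53 siRNA cells held more of nearly every kinetochore transcript than CTR siRNA cells. In p53 siRNA+nutlin against CTR siRNA+nutlin 31 of 34 genes were higher and 0 lower, where 17.2% of all tested genes were higher, 5.29% lower and 22.5% called in either direction, with a median of 2.25 against 0.19. Scaling moved that all-gene median to 0.00 and the share of higher genes among all calls to 53.1%, against 76.5% unscaled, with 31 of the genes still called and a median of 2.12. All 34 genes had both p53 siRNA libraries above both controls, as did 46.5% of all tested genes. SPC25 was at 33.6 and 30.0 FPKM in p53 siRNA+nutlin and 0.507 and 0.780 in CTR siRNA+nutlin (log2 change 4.32 ± 0.52, adjusted p = 0.000229). CENPA was at 22.7 and 20.3 FPKM in p53 siRNA+nutlin and 0.473 and 0.320 in CTR siRNA+nutlin (log2 change 4.01 ± 0.36, adjusted p = 5.18e-05). CENPH, CENPT and BUB3 did not pass. CENPH passed without either library of iASPP siRNA+nutlin, and ZW10 lost its call without CTR siRNA+nutlin replicate 1 or p53 siRNA+nutlin replicate 1. This comparison shares its control libraries with the nutlin comparison above.

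Where iASPP was also depleted, most kinetochore genes were again higher with p53 siRNA under nutlin. In p53+iASPP siRNA+nutlin against iASPP siRNA+nutlin 31 of 34 genes were higher and 0 lower, where 10.8% of all tested genes were higher, 4.82% lower and 15.6% called in either direction, with a median of 1.91 against 0.09. Scaling moved the share of higher genes among all calls to 57.4%, against 69.1%, with 30 of the genes called. SPC25 was at 31 and 36 FPKM in p53+iASPP siRNA+nutlin and 0.693 and 7.63 in iASPP siRNA+nutlin (log2 change 3.17 ± 0.52, adjusted p = 0.00267). ZWINT was at 57 and 44.2 FPKM in p53+iASPP siRNA+nutlin and 1.48 and 15.6 in iASPP siRNA+nutlin (log2 change 3.00 ± 0.61, adjusted p = 0.00801). CENPC, CENPT and BUB3 did not pass. The median within replicate 1 was 2.53 and within replicate 2 it was 1.29. ZWINT lost its call without p53+iASPP siRNA+nutlin replicate 1 (adjusted p = 0.0668).

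Nutlin after iASPP siRNA lowered the genes too, though fewer passed. In iASPP siRNA+nutlin against iASPP siRNA 19 of 34 genes fell and 0 rose, where 3.9% of all tested genes fell, 1.3% rose and 5.21% were called, and all 19 were among the 32 that fell in CTR siRNA cells. The median change was -1.17 against -0.05 over all tested genes, and 32 of 34 genes had both nutlin libraries below both others, as did 28.1% of all tested genes. All 4 NDC80 complex genes, all 3 SKA genes, 3 of 4 CENP-A loading genes, 6 of 12 tested genes of the constitutive network and 0 of 3 RZZ genes fell. ZWINT was at 1.48 and 15.6 FPKM in iASPP siRNA+nutlin and 36.1 and 39.6 in iASPP siRNA (log2 change -2.60 ± 0.61, adjusted p = 0.0354). SKA3 was at 0.229 and 2.81 FPKM in iASPP siRNA+nutlin and 12.5 and 9.87 in iASPP siRNA (log2 change -2.49 ± 0.38, adjusted p = 0.0104). In both genes replicate 1 with nutlin was far lower than replicate 2. The SE and p rest on a spread for each gene that is pooled over all groups, close pairs included. They therefore do not measure the spread of this wide pair.

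That spread ran through the set, with a median change of -1.69 within replicate 1 and -0.73 within replicate 2. CDKN1A was at 1656 and 776 FPKM in the same 2 libraries, higher in the one with the lower kinetochore genes, and its part in this spread was not tested. The count fell without iASPP siRNA+nutlin replicate 1 and rose without its replicate 2. Every call in the set was lost without either library of iASPP siRNA. The share of all tested genes called fell and rose in the same fits. Without replicate 2 of all 3 wide pairs both rose, and without replicate 1 the share rose and the count in the set was slightly lower.

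CENPA was at 0.575 and 3.22 FPKM in iASPP siRNA+nutlin and 7.25 and 7.87 in iASPP siRNA. HJURP was at 0.594 and 2.01 FPKM in iASPP siRNA+nutlin and 6.71 and 6.01 in iASPP siRNA. CENPU was at 0.880 and 3.12 FPKM in iASPP siRNA+nutlin and 7.50 and 7.94 in iASPP siRNA. These 3 fell, with every nutlin library below both others. CENPI was at 0.147 and 1.48 FPKM in iASPP siRNA+nutlin and 2.87 and 2.75 in iASPP siRNA. SPC25 was at 0.693 and 7.63 FPKM in iASPP siRNA+nutlin and 17.9 and 20.2 in iASPP siRNA. NDC80 was at 1.15 and 3.72 FPKM in iASPP siRNA+nutlin and 13.3 and 11.8 in iASPP siRNA. These fell as well, and in each replicate 2 was the higher of the nutlin pair.

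DSN1, which fell, was at 0.826 and 3.14 FPKM in iASPP siRNA+nutlin and 8.04 and 7.61 in iASPP siRNA. ZWILCH was at 2.78 and 4.53 FPKM in iASPP siRNA+nutlin and 5.97 and 6.09 in iASPP siRNA. KNTC1 was at 0.279 and 0.865 FPKM in iASPP siRNA+nutlin and 1.30 and 1.28 in iASPP siRNA. The 2 RZZ genes did not pass, although the groups did not overlap. SKA1, with the smallest adjusted p of the set (0.00763), was at 0.431 and 1.33 FPKM in iASPP siRNA+nutlin and 8.71 and 7.59 in iASPP siRNA. CENPF, which fell, was at 0.226 and 1.17 FPKM in iASPP siRNA+nutlin and 2.71 and 2.65 in iASPP siRNA. CENPE was at 0.102 and 0.209 FPKM in iASPP siRNA+nutlin and 0.899 and 0.741 in iASPP siRNA. CENPE did not pass on the log2(FPKM + 1) scale and did with a pseudocount of 0.1. CENPJ was at 0.481 and 0.671 FPKM in iASPP siRNA+nutlin and 1.39 and 1.16 in iASPP siRNA. CENPT was at 5.49 and 6.03 FPKM in iASPP siRNA+nutlin and 7.69 and 6.18 in iASPP siRNA. BUB3 was at 21.3 and 30.9 FPKM in iASPP siRNA+nutlin and 25.4 and 25.8 in iASPP siRNA. None of these 3 passed, and the BUB3 groups overlapped. CENPP was at 0.0731 and 0.303 FPKM in iASPP siRNA+nutlin and 0.205 and 1.12 in iASPP siRNA.

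The nutlin effect differed between iASPP siRNA and CTR siRNA cells by test in 2 genes, both less negative after iASPP siRNA, where 0.825% of all tested genes had a higher, 0.197% a lower and 1.02% any difference. These were NUF2 (2.29 ± 0.42, adjusted p = 0.0354) and CENPK (1.78 ± 0.30, adjusted p = 0.0283). The median difference of differences was 1.18 against 0.16 over all tested genes (1.05 against 0.01 after scaling, with 53.2% of all calls higher, against 80.7% unscaled). The unadjusted p was under 0.05 in 24 genes of the set and in 18.8% of all tested genes. The count rose without either library of iASPP siRNA+nutlin or p53 siRNA+nutlin, and without replicate 1 or replicate 2 of the 3 wide pairs. Whether that rise was particular to the set was not tested. Both calls were lost without any 1 library of p53+iASPP siRNA, iASPP siRNA, p53 siRNA, CTR siRNA or CTR siRNA+nutlin.

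With both siRNAs no kinetochore gene passed the test for nutlin. In p53+iASPP siRNA+nutlin against p53+iASPP siRNA 0 of 34 were called by limma, as were 0% of all tested genes. The median change was -0.26 against -0.04 over all tested genes. Both nutlin libraries lay below both others in 18 of 34 genes and above them in 2, against 26.2% and 15.2% of all tested genes. Of the set 2 had an unadjusted p under 0.05, as did 7.06% of all tested genes. The smallest p were those of SKA1, at 10.5 and 8.89 FPKM in p53+iASPP siRNA+nutlin and 16 and 15.9 in p53+iASPP siRNA (log2 change -0.67 ± 0.26, adjusted p = 0.694), and CENPO, at 4.01 and 2.95 FPKM in p53+iASPP siRNA+nutlin and 5.85 and 5.20 in p53+iASPP siRNA (log2 change -0.55 ± 0.23, adjusted p = 0.694). Mean levels with nutlin were 53.8% to 129% of those without. Leaving out replicate 1 of the 3 wide pairs raised the calls in the set and over all tested genes. Leaving out their replicate 2 raised them over all tested genes only.

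CENPA was at 14 and 18.6 FPKM in p53+iASPP siRNA+nutlin and 16.3 and 17.7 in p53+iASPP siRNA. HJURP was at 11.2 and 8.97 FPKM in p53+iASPP siRNA+nutlin and 16.8 and 14.9 in p53+iASPP siRNA. CENPU was at 15.1 and 12.2 FPKM in p53+iASPP siRNA+nutlin and 18.4 and 17.3 in p53+iASPP siRNA. HJURP and CENPU were lower with nutlin in both libraries, and the CENPA groups overlapped. CENPI was at 6.47 and 6.02 FPKM in p53+iASPP siRNA+nutlin and 5.12 and 7.93 in p53+iASPP siRNA. SPC25 was at 31 and 36 FPKM in p53+iASPP siRNA+nutlin and 45.1 and 41.2 in p53+iASPP siRNA. NDC80 was at 26.7 and 17.8 FPKM in p53+iASPP siRNA+nutlin and 30.1 and 29.2 in p53+iASPP siRNA. SPC25 and NDC80 were above 10 FPKM in every library with p53 siRNA.

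ZWINT was at 57 and 44.2 FPKM in p53+iASPP siRNA+nutlin and 60.4 and 58.9 in p53+iASPP siRNA. DSN1 was at 10.3 and 12.1 FPKM in p53+iASPP siRNA+nutlin and 15.1 and 14.5 in p53+iASPP siRNA. ZWILCH was at 8.40 and 9.95 FPKM in p53+iASPP siRNA+nutlin and 8.38 and 9.02 in p53+iASPP siRNA. The ZWILCH groups overlapped, unlike those of ZWINT and DSN1, which were lower with nutlin. KNTC1 was at 1.63 and 2.89 FPKM in p53+iASPP siRNA+nutlin and 2.08 and 2.40 in p53+iASPP siRNA. SKA3 was at 14.7 and 11.9 FPKM in p53+iASPP siRNA+nutlin and 18.8 and 18.1 in p53+iASPP siRNA. CENPF was at 3.97 and 4.01 FPKM in p53+iASPP siRNA+nutlin and 5.95 and 6.34 in p53+iASPP siRNA. KNTC1 overlapped between the groups. CENPE was at 1.60 and 1.33 FPKM in p53+iASPP siRNA+nutlin and 1.77 and 1.96 in p53+iASPP siRNA. CENPJ was at 1.99 and 1.98 FPKM in p53+iASPP siRNA+nutlin and 2.05 and 2.17 in p53+iASPP siRNA. CENPT was at 4.23 and 6.81 FPKM in p53+iASPP siRNA+nutlin and 8.03 and 5.78 in p53+iASPP siRNA. The CENPT groups overlapped again. BUB3 was at 26.9 and 37.6 FPKM in p53+iASPP siRNA+nutlin and 34.2 and 34.4 in p53+iASPP siRNA. CENPP was at 0.190 and 0.956 FPKM in p53+iASPP siRNA+nutlin and 0.749 and 1.38 in p53+iASPP siRNA.

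**Figure D5:**
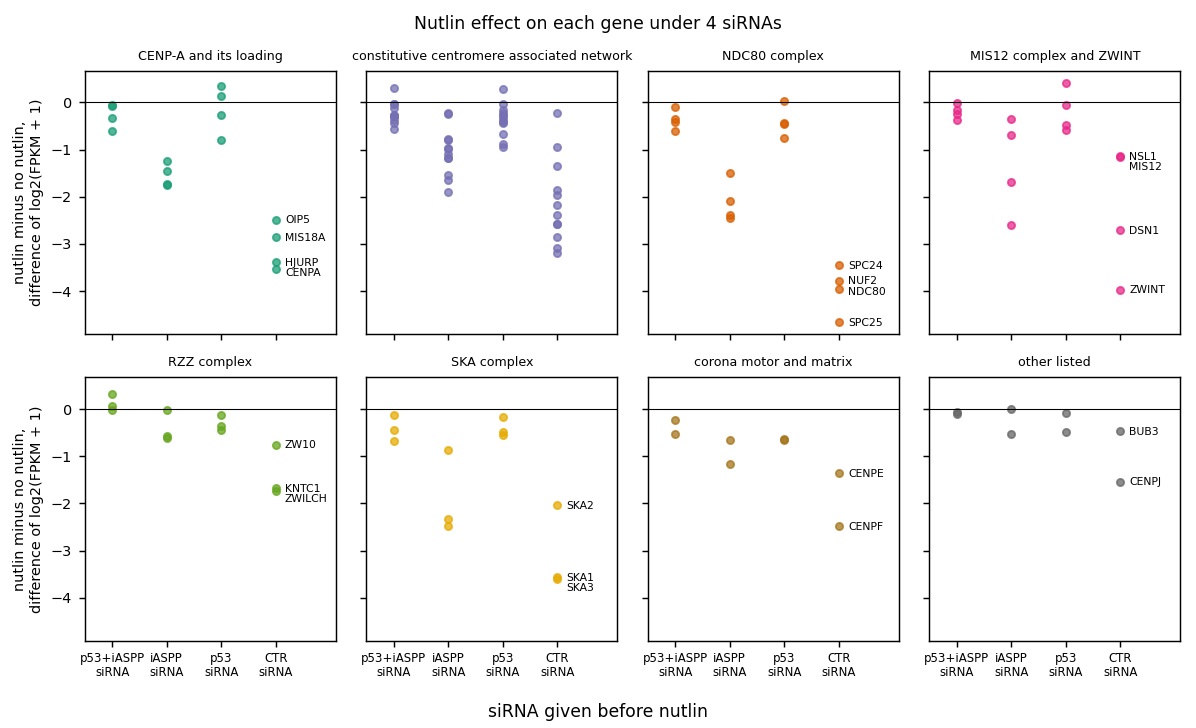
Change of each tested gene with nutlin (difference of log2(FPKM + 1), nutlin minus no nutlin) after p53+iASPP, iASPP, p53 and CTR siRNA, with 1 panel for each role class and 1 point for each gene. The median was -0.26 after p53+iASPP siRNA, -1.17 after iASPP siRNA, -0.39 after p53 siRNA and -2.48 after CTR siRNA.

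Without nutlin, iASPP siRNA lowered part of the set. In iASPP siRNA against CTR siRNA 7 of 34 genes fell and 0 rose, where 5.11% of all tested genes fell, 2.75% rose and 7.86% were called, with a median change of -0.71 against -0.09. Both iASPP siRNA libraries lay below both controls in 29 of 34 genes and above them in 1, against 42.3% and 24.4% of all tested genes. The 7 were CENPI, CENPQ and CENPU of the constitutive network, NUF2, ZW10, BUB3 and CENPJ. Scaling moved the share of higher genes among all calls to 46.6%, against 35% unscaled, and the median of the set to -0.63, with the 7 still called.

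NUF2 was at 7.32 and 6.57 FPKM in iASPP siRNA and 19.2 and 21.6 in CTR siRNA (log2 change -1.43 ± 0.30, adjusted p = 0.0199). CENPQ, a CENP-O group subunit, was at 2.54 and 5.72 FPKM in iASPP siRNA and 11.8 and 11.7 in CTR siRNA (log2 change -1.39 ± 0.28, adjusted p = 0.0180). ZW10, at 4.37 and 4.03 FPKM in iASPP siRNA and 8.17 and 8.84 in CTR siRNA, and BUB3, at 25.4 and 25.8 FPKM in iASPP siRNA and 45.8 and 40.9 in CTR siRNA, were among the genes least lowered by nutlin and fell here. For ZW10 the change with iASPP siRNA (-0.87 ± 0.18) was about as large as with nutlin (-0.75 ± 0.18); the 2 comparisons share the CTR siRNA libraries. CENPH had the largest change, at 7.95 and 7.85 FPKM in iASPP siRNA and 31.2 and 21.7 in CTR siRNA, without passing the test (log2 change -1.60 ± 0.45, adjusted p = 0.0526). CENPT was higher in both iASPP siRNA libraries, at 7.69 and 6.18 FPKM against 4.98 and 4.70 in CTR siRNA, without passing (log2 change 0.43 ± 0.27, adjusted p = 0.320).

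With iASPP siRNA the intervals of 3 partner differences left out 0, those of CENPW minus CENPT (-1.30, interval -2.19 to -0.41), DSN1 minus NSL1 (-0.81, interval -1.46 to -0.16) and ZWILCH minus ZW10 (0.46, interval 0.02 to 0.91). The other 7 intervals included 0, as did those of DSN1 minus NSL1 (-0.88, interval -1.78 to 0.02) and ZWILCH minus ZW10 (0.54, interval -0.02 to 1.11) with a pseudocount of 0.1. CDKN1A was at 411 and 406 FPKM in iASPP siRNA and 70.7 and 72.7 in CTR siRNA, and its part in the lower kinetochore levels was not tested. The count of 7 was 0 without iASPP siRNA replicate 1 or either CTR siRNA library and 1 (CENPQ) without iASPP siRNA replicate 2. It rose without a library of p53 siRNA+nutlin or iASPP siRNA+nutlin, and without replicate 1 or replicate 2 of the 3 wide pairs. None of these libraries enters the 2 means, and the share of all tested genes called rose too.

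With p53 depleted the effect of iASPP siRNA was not detected. In p53+iASPP siRNA against p53 siRNA 0 of 34 genes were called by limma, where 0.947% of all tested genes were (0.525% higher and 0.422% lower). The median was -0.14 against -0.003 over all tested genes. Both p53+iASPP siRNA libraries lay below both others in 15 of 34 genes and above them in 8, against 29.1% and 28.3% of all tested genes. An unadjusted p under 0.05 was found for 1 higher and 4 lower genes, and for 16.5% of all tested genes in either direction. The smallest p were those of ZW10, at 5.45 and 5.26 FPKM in p53+iASPP siRNA and 9.80 and 9.03 in p53 siRNA (log2 change -0.71 ± 0.18, adjusted p = 0.0912), and KNTC1, at 2.08 and 2.40 FPKM in p53+iASPP siRNA and 4.63 and 3.70 in p53 siRNA (log2 change -0.67 ± 0.24, adjusted p = 0.201). Both RZZ genes were lower in each library of p53+iASPP siRNA. More genes were called without a library of iASPP siRNA+nutlin, or without replicate 1 or replicate 2 of the 3 wide pairs. This held over all tested genes as well as in the set. The difference of the iASPP effects itself (p53 by iASPP interaction, limma) was called in 0 of 34 genes, where 0.0281% of all tested genes were (0.0188% higher and 0.00938% lower). Of the set 6 had an unadjusted p under 0.05, as did 14.6% of all tested genes. More genes of the set were called without either library of iASPP siRNA+nutlin and without replicate 1 or replicate 2 of the 3 wide pairs. Whether that rise was particular to the set was not tested. In the fit of all libraries the median was 0.53 against 0.10. The smallest p were those of CENPH (2.05 ± 0.64, adjusted p = 0.205) and CENPW (1.13 ± 0.36, adjusted p = 0.212).

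In iASPP-depleted cells 1 gene, SKA2, was called with p53 siRNA. In p53+iASPP siRNA against iASPP siRNA 1 of 34 genes was called by limma, where 0.422% of all tested genes were higher, 0.553% lower and 0.975% called in either direction, with a median of 0.69 against 0.08. The unadjusted p was under 0.05 in 22 genes, all higher, and in 17.7% of all tested genes in either direction. Scaling moved the share of higher genes among all calls to 31.9%, against 43.3%. Both p53+iASPP siRNA libraries lay above both others in 32 of 34 genes, as in 41.1% of all tested genes. SKA2 was at 77.4 and 75.1 FPKM in p53+iASPP siRNA and 41.8 and 33.8 in iASPP siRNA (log2 change 1.00 ± 0.20, adjusted p = 0.0458). This call was lost with a pseudocount of 0.1, with no filter on low values, with scaling and with the replicate block, and the count was 0 in 11 of the 16 fits that leave out 1 library. It rose without a library of iASPP siRNA+nutlin or p53 siRNA+nutlin, and without replicate 1 or replicate 2 of the 3 wide pairs. The share of all tested genes called rose in the same fits. The call of SKA2 was lost without any 1 library of p53+iASPP siRNA+nutlin, CTR siRNA+nutlin, p53+iASPP siRNA, p53 siRNA or CTR siRNA, or without iASPP siRNA replicate 1.

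In otherwise untreated cells p53 siRNA changed no gene of the set by test. In p53 siRNA against CTR siRNA 0 of 34 were called by limma, where 0.0375% of all tested genes were. The median was 0.17 against -0.003 over all tested genes. Both p53 siRNA libraries lay above both controls in 17 of 34 genes and below them in 2, against 26.8% and 27.2% of all tested genes. Of the set 1 had an unadjusted p under 0.05, as did 12.9% of all tested genes. CENPH was at 11.6 and 13.3 FPKM in p53 siRNA and 31.2 and 21.7 in CTR siRNA (log2 change -1.01 ± 0.45, adjusted p = 0.379), lower in both libraries. Without replicate 1 or without replicate 2 of the 3 wide pairs more genes were called, in the set and over all tested genes. CENPK was at 14.9 and 15.5 FPKM in p53 siRNA and 9.92 and 11.8 in CTR siRNA (log2 change 0.45 ± 0.21, adjusted p = 0.394), higher in both.

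Under nutlin, iASPP siRNA was set against CTR siRNA with 1 gene called. In iASPP siRNA+nutlin against CTR siRNA+nutlin 1 of 34 was higher and 0 lower, where 0.506% of all tested genes were higher, 0.263% lower and 0.769% called in either direction, with a median of 0.48 against 0.07. Scaling moved the share of higher genes among all calls to 35.7%, against 65.9%. CENPK was at 4.39 and 3.04 FPKM in iASPP siRNA+nutlin and 1.20 and 0.807 in CTR siRNA+nutlin (log2 change 1.23 ± 0.21, adjusted p = 0.0343), with no overlap and with replicate 2 of iASPP siRNA+nutlin the lower of its pair, the opposite of 34 of the 35 genes. Within replicate 1 the median was 0.05, with 18 genes higher and 16 lower, and within replicate 2 it was 1.01, with 32 higher and 2 lower. The summed FPKM of the 35 genes was 121 and 235 in iASPP siRNA+nutlin, against 129 and 115 in CTR siRNA+nutlin, so 1 library carried the higher sum. Without replicate 1 of iASPP siRNA+nutlin, or of all 3 wide pairs, more genes of the set were called, all higher. Without replicate 2 of iASPP siRNA+nutlin, or of all 3 wide pairs, both higher and lower genes of the set were called. In each of these fits more of all tested genes were called too. ZWINT, with a log2 change of 0.89 in the fit of all libraries, was reversed in sign without replicate 2 of all 3 wide pairs (-0.48). Without their replicate 1 it was at 2.26. The call of CENPK was lost with no filter on low values and without any 1 library of p53+iASPP siRNA, p53 siRNA, CTR siRNA or CTR siRNA+nutlin.

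In p53+iASPP siRNA+nutlin against p53 siRNA+nutlin 0 of 34 were called by limma, where 0.00938% of all tested genes were. The median was 0.03 against -0.02 over all tested genes. Of the set 0 had an unadjusted p under 0.05, where 4.64% of all tested genes did. The smallest p were those of ZWILCH, at 8.40 and 9.95 FPKM in p53+iASPP siRNA+nutlin and 7.61 and 5.87 in p53 siRNA+nutlin (log2 change 0.40 ± 0.20, adjusted p = 0.961), and ZW10, at 6.47 and 7.30 FPKM in p53+iASPP siRNA+nutlin and 9.83 and 7.36 in p53 siRNA+nutlin (log2 change -0.27 ± 0.18, adjusted p = 0.961). ZWILCH was higher and ZW10 lower in both libraries of p53+iASPP siRNA+nutlin, and both groups are wide pairs.

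Other genes of the same structures, listed apart from the 35, gave the following counts. Of 8 further kinetochore genes all 8 fell with nutlin in CTR siRNA cells (median -1.24), 2 fell after iASPP siRNA and 0 after p53 siRNA or both, by the same limma test, where 21%, 3.9%, 0.0844% and 0% of all tested genes fell. They were CASC5, the older symbol of KNL1, the MIS12 partner PMF1, the alphoid DNA binding CENPB, APITD1 and STRA13, older symbols of CENPS and CENPX, ITGB3BP, SPDL1 and BOD1. CASC5 was at 0.121 and 0.0624 FPKM in CTR siRNA+nutlin and 2.97 and 2.59 in CTR siRNA. CENPB had the smallest change, with 11.5 and 10.5 FPKM in CTR siRNA+nutlin and 16.1 and 14.9 in CTR siRNA. With iASPP siRNA alone 3 of the 8 fell, where 5.11% of all tested genes did.

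Of 11 inner centromere and checkpoint genes 10 fell with nutlin in CTR siRNA cells, with a median of -3.68, and the same number fell after iASPP siRNA (median -1.85) and 0 after p53 siRNA, where 21%, 3.9% and 0.0844% of all tested genes fell. AURKB, the kinase of the chromosomal passenger complex, was at 3.81 and 1.96 FPKM in CTR siRNA+nutlin and 116 and 103 in CTR siRNA. BUB1, the checkpoint kinase that BUB3 brings to kinetochores, was at 0.368 and 0.470 FPKM in CTR siRNA+nutlin and 23.2 and 22.5 in CTR siRNA, a fall to 1.83% where BUB3 was at 71.5%. MAD1L1 was the exception, at 10.2 and 9.74 FPKM in CTR siRNA+nutlin and 12.3 and 9.08 in CTR siRNA (log2 change -0.08 ± 0.23, adjusted p = 0.835). With iASPP siRNA alone 2 fell, AURKB and SGO2, where 5.11% of all tested genes did. Under nutlin 2 were higher with iASPP siRNA, where 0.506% of all tested genes were. AURKB was at 9.98 and 18.2 FPKM in iASPP siRNA+nutlin and 3.81 and 1.96 in CTR siRNA+nutlin (log2 change 1.94 ± 0.27, adjusted p = 0.0123). BIRC5, of the complex of AURKB, was at 3.85 and 10.3 FPKM in iASPP siRNA+nutlin and 1.55 and 1.36 in CTR siRNA+nutlin (log2 change 1.59 ± 0.29, adjusted p = 0.0415).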

How the data were processed

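Poly(A) RNA of HCT116 cells was sequenced in 16 libraries. The authors deposited FPKM per gene, not counts, and per the submitters' processing notes used edgeR (version not given) with build hg38; the aligner, counter, annotation, strandedness and treatment of multi-mapping reads are each not given in the sources used here. Samples were grouped by their labels. Members and lists were chosen with earlier results of these data known. From the deposited FPKM, limma 3.58.1 (R 4.3.3) fitted 8 group means with a trended prior to log2(FPKM + 1) of the 10662 genes whose mean reached 1 FPKM, giving 12 comparisons and 3 interactions, and adjusted p by Benjamini-Hochberg over those genes (threshold 0.05). The fit was run on simulated data with an equal spread in all groups, so that run does not cover the wider spread of the 3 wide pairs. In the fit itself the SE and p of a gene rest on a spread pooled over the 8 groups. Per role class, the pair of called genes with the largest nutlin changes and any gene not called is given in every library. Gene positions are GENCODE annotation of GRCh38. Deviations of libraries with equal replicate numbers were mostly little correlated between groups (-0.03 to 0.30, median 0.02, over 28 pairs of groups, above 0.1 in 3). Depth, however, differed by replicate number. Alternatives were a pseudocount of 0.1, no filter, median-of-ratios scaling, a replicate block, each library left out, replicate 2 of the 3 wide pairs left out and close replicates counted once; leaving out replicate 1 of the wide pairs was added after seeing the data. Not reported here: the level of the p53 transcript itself and 1 further gene of the lists.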

Additional observations from a re-analysis of the deposited data

Results flagged for a closer look

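The nutlin effect differed by test between p53 siRNA and CTR siRNA cells in 27 of the 34 tested genes, where 9.75% of all tested genes did, with the largest differences of differences in SPC25 (4.20 on the log2(FPKM + 1) scale) and NUF2 (3.81). It differed between iASPP siRNA and CTR siRNA cells in 2 genes, where 1.02% of all tested genes did: NUF2 (2.29) and CENPK (1.78), less negative after iASPP siRNA in both. This count was 0 in 10 of the 16 fits that leave out 1 library, those without any 1 library of p53+iASPP siRNA, iASPP siRNA, p53 siRNA, CTR siRNA or CTR siRNA+nutlin.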

How the results depend on the processing

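Depth limits genes near 0 FPKM, whose log2 changes depend on the pseudocount. With no filter on low values, 9 genes were called for nutlin after iASPP siRNA, 4 for iASPP siRNA against CTR siRNA, 0 for iASPP siRNA under nutlin and 0 for p53 siRNA in iASPP-depleted cells. With a pseudocount of 0.1 these last 3 comparisons gave 4, 2 and 0. Scaling and the replicate block each gave 0 in iASPP-depleted cells, and the block, over numbers whose deviations were mostly little correlated between groups, moved no other count by over 1.5 times. Without replicate 2 of the 3 wide pairs the counts were 24 for iASPP siRNA against CTR siRNA, 3 for it after p53 siRNA, 4 under nutlin, 2 for p53 siRNA against CTR siRNA, 24 for p53 siRNA in iASPP-depleted cells, 10 for the nutlin by iASPP and 11 for the p53 by iASPP interaction; ZWINT under nutlin then turned to -0.48. Without their replicate 1, tried after seeing the data, the counts were 13 for nutlin after p53 siRNA, 1 after both, 24 for iASPP siRNA against CTR siRNA, 3 for it after p53 siRNA, 17 under nutlin, 2 for p53 siRNA against CTR siRNA, 24 in iASPP-depleted cells, and 30 and 11 for the nutlin by iASPP and p53 by iASPP interactions. With close replicates counted once, which leaves fewer samples, 0 genes were called in every comparison with limma, although 30 had an unadjusted p under 0.05 for nutlin in CTR siRNA cells, 31 for p53 siRNA under nutlin, 30 with iASPP also depleted, 25 for the nutlin by p53 interaction and 22 for nutlin after iASPP siRNA. KNTC1 minus ZW10 with iASPP siRNA turned to -0.19 with a pseudocount of 0.1. Leaving out each library in turn gave 30 to 33 called genes for nutlin in CTR siRNA cells, 0 to 1 after p53 siRNA, 0 to 27 after iASPP siRNA and 0 after both; 0 to 19 for iASPP siRNA against CTR siRNA, 0 to 1 after p53 siRNA, 0 to 14 under nutlin and 0 with both; 0 for p53 siRNA against CTR siRNA, 0 to 16 in iASPP-depleted cells, 30 to 32 under nutlin and 21 to 32 with iASPP also depleted; and 18 to 29, 0 to 26 and 0 to 3 for the nutlin by p53, nutlin by iASPP and p53 by iASPP interactions. The share of all tested genes called moved in these fits as well. In fits without a replicate of the 3 wide pairs, the share of the set called was not always above that of all tested genes. With replicate 2 left out it was below for iASPP siRNA after p53 siRNA, iASPP siRNA under nutlin and p53 siRNA against CTR siRNA. With replicate 1 left out it was below for nutlin after both siRNAs, iASPP siRNA after p53 siRNA and p53 siRNA against CTR siRNA. In the other comparisons counted above for these fits it was higher. Apart from the changes stated, the cause of which was not tested, counts of called genes stayed within 1.5 times.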
